A study of Homo sapiens with 8 samples.

Results

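The sgRNAs against 10 receptor tyrosine kinases of blood vessels, blood cells and mesenchyme were followed in a screen for genes that set the level of PRMT5, the main symmetric arginine methyltransferase. The members were taken by target gene, with no limit set on their values, and comprised the VEGF receptors *KDR*, *FLT1* and *FLT4*, the TIE receptors *TEK* and *TIE1*, and the PDGF/KIT class receptors *PDGFRA*, *PDGFRB*, *KIT*, *CSF1R* and *FLT3*. Each gene had 7 sgRNAs, so the set held 70 of the 10429 sgRNAs of the library and 10 of its 1420 targeted genes. The screen used Pt-resistant cells of COV362, an established cell line of high-grade serous ovarian cancer that was made to express Cas9 and is listed as WT in genotype. A druggable-genome sgRNA library was transduced, the selected cells were split into 4 replicates and cultured for 2 weeks, and flow cytometry then separated the cells of each replicate by PRMT5 staining. The cells with the least PRMT5 gave 4 PRMT5lo libraries and those with the most gave 4 PRMT5hi libraries. All 8 libraries came from the same Pt-resistant, Cas9-expressing and puromycin-selected cells, and neither unsorted cells nor cells from before the culture were analysed here. Because the cultures were divided after a shared transduction, their spread does not include that between transductions, and the p-values carry this limit.

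Receptor tyrosine kinases span the plasma membrane and pair up when a ligand binds outside the cell, after which their kinase domains phosphorylate tyrosines that recruit RAS, PI3K and SRC family signaling. The VEGF receptors direct the growth of blood and lymphatic vessels, and the TIE receptors act later, in vessel stability. The PDGF receptors act in fibroblasts, pericytes and smooth muscle, KIT in blood progenitors, germ cells and melanocytes, CSF1R in macrophages and FLT3 in early blood progenitors. An sgRNA directs Cas9 to cut its target gene, and faulty repair of the cut can inactivate the gene, so that counting sgRNAs in sorted DNA counts the cells with each target. The libraries hold sgRNA DNA and no transcripts, so whether COV362 cells made these receptors was not measured.

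A change in PRMT5 after loss of a gene would move its sgRNAs between the sorted populations, and each sgRNA was therefore described by log2 of CPM + 1 in PRMT5lo over CPM + 1 in PRMT5hi. Positive ratios belong to sgRNAs with more reads in PRMT5lo cells. The values are the authors' means over the 4 libraries of a population, so values of single libraries cannot be shown. The SE given for an sgRNA comes from the authors' variances over the libraries, and the SD of a gene is taken across sgRNAs, which share a target and do not replicate the sort. The depth, recovered from the smallest variances, was 19117396 reads in PRMT5lo and 16166859 reads in PRMT5hi, or 458 and 388 reads per sgRNA and library. At this depth the members were well covered, with a median of 83.6 CPM in PRMT5lo and 88.4 CPM in PRMT5hi. Without molecular identifiers, PCR reads cannot be counted as molecules, so the depth covers counting error only.

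Across the 70 sgRNAs the populations differed little. In PRMT5lo cells 35 of the 70 were more abundant than in PRMT5hi cells (50%, beside 49.8% of all targeting sgRNAs), and the median log2 ratio was -0.0047, beside -0.0018 over all targeting sgRNAs and 0.011 over the 500 controls. The log2 ratios had an SD of 0.31 over the members, 0.29 over all targeting sgRNAs and 0.25 over the controls. For 48 of the 70 the ratio lay within 1 SE of 0, and for 7 it lay beyond 2 SE. The same counts over all targeting sgRNAs were not taken, so these do not set the members apart. The median absolute log2 ratio was 0.16 in the members and 0.18 over all targeting sgRNAs, with median SEs of 0.25 and 0.24. In the score test of CB2, recomputed from the authors' fractions and variances, 3 members were enriched in PRMT5lo cells at a one-sided p under 0.05 (4.29%, against a background of 5.66% of targeting sgRNAs) and 3 in PRMT5hi cells (4.29%, against 6.00%). Of the control sgRNAs 9% and 6.6% passed the same limits. After Benjamini-Hochberg adjustment over all targeting sgRNAs none of the 70 passed an adjusted p of 0.05 toward PRMT5lo, where 4 sgRNAs did in all (0.0403%), or toward PRMT5hi, where 0 did (0%).

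No receptor of the set passed as a gene. At a one-sided p under 0.01 from Fisher's method and a mean log2 ratio beyond 0.25, 0 of the 10 genes were called toward PRMT5lo (background 0.704% of genes) and 0 toward PRMT5hi (background 0.845%). In either direction 0 of the 10 reached a one-sided p under 0.05 by that method. Over all 1420 genes 122 did so toward PRMT5lo and 132 toward PRMT5hi. The means ran from -0.19 for *PDGFRA* to 0.09 for *TEK*, with 4 above 0 and 6 below 0. Over all targeted genes 51.5% of means lay below 0. Of the 10 means, 7 lay closer to 0 than their SE, and all 10 of the 95% intervals (mean ± 1.96 SE) included 0. The same counts over all 1420 genes were not taken, so these do not set the receptors apart. A shift as large as the limit of 0.25 lay outside the interval for 3 of the genes, *FLT3* (-0.16 to 0.15), *KIT* (-0.19 to 0.18) and *TIE1* (-0.19 to 0.22). For the other 7 a shift of that size lay inside it, most widely for *PDGFRA* (-0.48 to 0.11). These intervals carry the spread between libraries and not that between the sgRNAs of a gene.

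The VEGF receptors were the most scattered subgroup, with an SD of 0.40 over their 21 log2 ratios, beside 0.15 over the 14 of the TIE receptors and 0.29 over the 35 of the PDGF/KIT class. The 0.40 includes a ratio of 1.00 (SE 0.65) for sgRNA 5 against *FLT1*, at 10.1 CPM in PRMT5lo and 4.55 CPM in PRMT5hi. The SD without this sgRNA was not taken. *KDR*, which encodes VEGFR2, the main signaling receptor for VEGFA in endothelium, had a mean of -0.12 (SD 0.18 over sgRNAs, SE 0.093), with 3 of 7 sgRNAs more abundant in PRMT5lo. Its lowest sgRNA, number 1, stood at 66.0 CPM in PRMT5lo and 87.1 CPM in PRMT5hi, a log2 ratio of -0.39 (SE 0.32). Its highest, number 2, stood at 164 CPM in PRMT5lo and 157 CPM in PRMT5hi, with a ratio of 0.06 (SE 0.039). This SE is the smallest among the members, because in both populations the variance of that sgRNA was the smallest the authors' method allows, which reflects read counting alone. No sgRNA of *KDR* passed a p of 0.05, and the gene's one-sided p toward PRMT5hi was 0.395 by Fisher's method.

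*FLT1*, the receptor VEGFR1, which binds VEGFA tightly and can hold it back from VEGFR2, had a mean near 0 made of sgRNAs that disagreed. Its mean log2 ratio was 0.01 with an SD of 0.56 over sgRNAs, the largest SD of the 10 genes. sgRNA 5 stood at 10.1 CPM in PRMT5lo and 4.55 CPM in PRMT5hi, a ratio of 1.00 (SE 0.65). This sgRNA was the least abundant member, the only one under 20 CPM in the mean of both populations, with about 193 reads in PRMT5lo and 73 reads in PRMT5hi over the 4 libraries of each. sgRNA 3 went the other way, with 29.0 CPM in PRMT5lo and 52.0 CPM in PRMT5hi, a ratio of -0.82 (SE 0.43). Neither passed a p of 0.05 in the score test. With a variance set instead by the trend of variance over sgRNAs of like abundance, the p of sgRNA 3 toward PRMT5hi was 0.0475. The other sgRNAs against *FLT1* lay between -0.24 and 0.33. The mean was -0.15 without sgRNA 5 and 0.15 without sgRNA 3, so its sign rested on single sgRNAs.

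*FLT4*, the receptor VEGFR3 of lymphatic endothelium, had a mean of -0.02 (SD 0.43 over sgRNAs, SE 0.12). Toward PRMT5hi, sgRNA 6 passed a one-sided p of 0.05, with 32.7 CPM in PRMT5lo and 46.9 CPM in PRMT5hi, a ratio of -0.51 (SE 0.25) and a p of 0.0461 in the score test of CB2 (adjusted p = 0.810). With the variance from the trend the p was 0.112. sgRNA 1 had a larger ratio at a higher abundance, -0.57 (SE 0.26), with 96.9 CPM in PRMT5lo and 144 CPM in PRMT5hi, and a p of 0.0520 in the same test, or 0.0269 with the variance from the trend. Against these, sgRNA 5 stood at 36.2 CPM in PRMT5lo and 22.5 CPM in PRMT5hi, a ratio of 0.66 (SE 0.66) that was no larger than its error. The 3 sgRNAs with the largest ratios of *FLT4* thus did not share a direction.

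The TIE receptors were the only subgroup with all means above 0, but they are only 2 genes, and 48.5% of all gene means lay above 0. The mean of *TIE1* was 0.01 (SE 0.11), and -0.01 without its sgRNA 6. *TEK*, which encodes TIE2, the receptor of the angiopoietins, had the highest mean of the set, 0.09 (SD 0.19 over sgRNAs, SE 0.081), equal to a 1.07-fold abundance in PRMT5lo relative to PRMT5hi cells. Of its sgRNAs 5 of 7 were more abundant in PRMT5lo. sgRNA 1 led with 184 CPM in PRMT5lo and 143 CPM in PRMT5hi, a ratio of 0.36 (SE 0.12). It had the lowest p of the members toward PRMT5lo, 0.0279 in the score test of CB2 (adjusted p = 0.797), and in PRMT5hi its variance was the smallest the method allows. With the variance from the trend the p was 0.0402. The lowest sgRNA of *TEK*, number 6, stood at 105 CPM in PRMT5lo and 116 CPM in PRMT5hi, a ratio of -0.15 (SE 0.24). The one-sided p of *TEK* toward PRMT5lo was 0.174 (adjusted p = 0.798 by Fisher's method over all genes).

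*TIE1*, a receptor with no well-established ligand of its own that pairs with TIE2, was the most even gene of the set. Its 7 log2 ratios lay between -0.14 and 0.16, with a mean of 0.01 and an SD of 0.10, the smallest of the 10. The outermost sgRNAs were number 6, at 57.8 CPM in PRMT5lo and 51.7 CPM in PRMT5hi, and number 5, at 98.0 CPM in PRMT5lo and 108 CPM in PRMT5hi. sgRNA 4, with the smallest SE of the gene, stood at 105.7 CPM in PRMT5lo and 105.4 CPM in PRMT5hi, a ratio of 0.0038 (SE 0.076). In PRMT5hi the variance of sgRNA 4 was the smallest the method allows. Every sgRNA against *TIE1* was within 1 SE of no difference between the populations.

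In the PDGF/KIT class 4 of the 5 means were below 0, beside 51.5% of all gene means. Those of *KIT* (-0.0065), *FLT3* (-0.0056) and *CSF1R* (-0.07) were smaller than their SE (0.094, 0.080 and 0.10). *PDGFRA*, the PDGF receptor alpha, had the lowest mean of all members, -0.19 (SD 0.28 over sgRNAs, SE 0.15), equal to a 1.14-fold abundance in PRMT5hi relative to PRMT5lo cells, and 5 of its 7 sgRNAs were below 0. The lowest was sgRNA 6, with 27.1 CPM in PRMT5lo and 39.8 CPM in PRMT5hi, a ratio of -0.54 (SE 0.54), and the highest was sgRNA 2, with 158 CPM in PRMT5lo and 141 CPM in PRMT5hi, a ratio of 0.17 (SE 0.30). *PDGFRA* also had the lowest mean abundance of the set, 69.4 CPM in PRMT5lo and 72.9 CPM in PRMT5hi, and no sgRNA of it passed a p of 0.05. Its mean ranked 1342 of the 1420 genes from the highest, with a one-sided p toward PRMT5hi of 0.369 by Fisher's method. In limma on the sgRNA ratios its two-sided p was 0.0849 (adjusted p = 0.796), the lowest limma p of the set. That fit takes a gene's sgRNAs as replicates, although they do not replicate the sort, so its p measures their spread only.

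*PDGFRB*, the PDGF receptor beta, held the lowest p of the set in a direction opposite to its mean. The mean was 0.07 (SD 0.28 over sgRNAs, SE 0.11) and 5 of 7 sgRNAs were more abundant in PRMT5lo. The highest, sgRNA 6, stood at 146 CPM in PRMT5lo and 102 CPM in PRMT5hi, a ratio of 0.51 (SE 0.24), with a one-sided p toward PRMT5lo of 0.0319 in the score test of CB2 (adjusted p = 0.817) and 0.0248 with the variance from the trend. sgRNA 5 stood at 83.4 CPM in PRMT5lo and 107.9 CPM in PRMT5hi, a ratio of -0.37 (SE 0.051), with a p toward PRMT5hi of 0.00014 in the same test (adjusted p = 0.0928), the smallest among the 70. That ratio lay inside the central range of the control sgRNAs (-0.39 to 0.43, their 5th to 95th percentiles). In both populations its variance was the smallest the method allows, and with the variance from the trend the p was 0.0817. The gene's one-sided p toward PRMT5hi was 0.0600 (adjusted p = 0.575 by Fisher's method), and 0.948 without sgRNA 5. Without any other single sgRNA it lay between 0.0281 and 0.0515, while the mean stayed above 0.

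*KIT*, the receptor of stem cell factor, had a mean of -0.0065 (SD 0.29 over sgRNAs, SE 0.094). sgRNA 7 was enriched in PRMT5lo, with 57.6 CPM there and 41.0 CPM in PRMT5hi, a ratio of 0.48 (SE 0.22) and a p of 0.0496 in the score test of CB2 (adjusted p = 0.878). In PRMT5lo its variance was the smallest the method allows, and with the variance from the trend the p was 0.124. sgRNA 5 had nearly the opposite ratio, -0.45 (SE 0.31), with 39.3 CPM in PRMT5lo and 54.0 CPM in PRMT5hi. The remaining 5 sgRNAs lay between -0.13 and 0.19, with sgRNA 2 at 100.2 CPM in PRMT5lo and 100.1 CPM in PRMT5hi.

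*CSF1R*, the receptor of macrophage colony-stimulating factor, had a mean of -0.07 (SD 0.31 over sgRNAs, SE 0.10). Its lowest sgRNA, number 7, was also its least abundant, with 22.5 CPM in PRMT5lo and 35.5 CPM in PRMT5hi, a ratio of -0.63 (SE 0.41). Its highest, number 3, stood at 106 CPM in PRMT5lo and 85.4 CPM in PRMT5hi, a ratio of 0.32 (SE 0.22). Neither passed a p of 0.05, and without sgRNA 7 the mean was 0.03.

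*FLT3*, the receptor of FLT3 ligand, had a mean of -0.0056 (SD 0.29 over sgRNAs, SE 0.080), and a single sgRNA stood apart. sgRNA 6 stood at 118 CPM in PRMT5lo and 173 CPM in PRMT5hi, a ratio of -0.54 (SE 0.12), equal to a 1.46-fold abundance in PRMT5hi relative to PRMT5lo cells. Its one-sided p was 0.00144 in the score test of CB2 (adjusted p = 0.257) and 0.0213 with the variance from the trend, and its own variance was above the smallest in both populations. The highest sgRNA of *FLT3*, number 5, went the other way, with 113 CPM in PRMT5lo and 89.6 CPM in PRMT5hi, a ratio of 0.33 (SE 0.25). The other 5 lay between -0.14 and 0.22, and without sgRNA 6 the mean was 0.08, so no second sgRNA of *FLT3* repeated the shift of sgRNA 6.

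Beyond the 5th and 95th percentiles of the control sgRNAs lay 13 of the 70 members. Above the range were 4 (5.71%, against 5.96% of all targeting sgRNAs), 1 each against *FLT1*, *FLT4*, *KIT* and *PDGFRB*. Below it were 9 (12.9%, against 8.37% of all targeting sgRNAs), 2 each against *FLT4* and *PDGFRA* and 1 each against *KDR*, *FLT1*, *KIT*, *CSF1R* and *FLT3*. Both TIE receptors had all their sgRNAs inside the range. The members were sorted by mean abundance to see where these sgRNAs fell. The less abundant 35 members, at 7.33 to 86.9 CPM in the mean of both populations, held 10 of the 13, and the more abundant 35, at 89.4 to 252 CPM, held 3. The SD of the ratios was 0.36 in the less abundant and 0.24 in the more abundant members, and the median SE of an sgRNA was 0.31 and 0.21. Across the 70 sgRNAs, which share the libraries, abundance and the absolute log2 ratio had a Spearman rho of -0.24 and a Pearson r of -0.50, and r was -0.37 without sgRNA 5 against *FLT1*. The control sgRNAs were more abundant than the members, with a median of 123 CPM in each population, and the part of this gap in the 13 sgRNAs was not tested.

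Several of these genes are neighbours in the genome (RefSeq annotation of GRCh38.p14). *PDGFRA* (chr4:54229293-54298245), *KIT* (chr4:54657957-54740715) and *KDR* (chr4:55078481-55125595) follow each other on chromosome 4, with 359711 and 337765 bases between them. All 3 means on this stretch were below 0, beside 51.5% of all gene means, and that of *KIT* was -0.0065 (SE 0.094). Of their 21 sgRNAs 8 were above 0, beside 49.8% of all targeting sgRNAs. *CSF1R* (chr5:150053295-150113365) and *PDGFRB* (chr5:150113839-150155845) lie 473 bases apart on chromosome 5, with means of -0.07 and 0.07, and *FLT4* (chr5:180601506-180650298) lies farther along that chromosome. *FLT3* (chr13:28003274-28100576) and *FLT1* (chr13:28300346-28495128) are 199769 bases apart on chromosome 13. *TEK* (chr9:27109225-27230174) and *TIE1* (chr1:43300982-43323108) stand alone. Median abundance was 67.3 CPM in PRMT5lo and 74.0 CPM in PRMT5hi for the chromosome 4 sgRNAs, against 116 CPM in PRMT5lo and 117 CPM in PRMT5hi for those of chromosome 13. It was 77.7 CPM in both populations for those of chromosome 5. Over all targeting sgRNAs it was 84.9 CPM in PRMT5lo and 85.0 CPM in PRMT5hi. The copy number of these regions in COV362 was not measured here, and its part in abundance was not tested.

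Among the ligands and the co-receptor in the library, 6 of 7 means were below 0, beside 51.5% of all genes. Of the 7, 0 were called toward PRMT5lo (background 0.704% of genes) and 0 toward PRMT5hi (background 0.845%). The highest mean belonged to *VEGFA*, the ligand of VEGFR1 and VEGFR2, with 0.10 (SD 0.48 over sgRNAs, one-sided p toward PRMT5lo 0.0196 by Fisher's method, adjusted p = 0.428). The lowest belonged to *CSF1*, the ligand of CSF1R, with -0.20 (SD 0.29, one-sided p toward PRMT5hi 0.00227 by Fisher's method, adjusted p = 0.189). Its p passed the limit of 0.01 and its mean did not reach -0.25, so *CSF1* was not called. The mean of its receptor was on the same side of 0, and smaller. The remaining means, given after their values were seen to complete the list, were -0.11 for *NRP1*, the neuropilin that binds VEGFA beside VEGFR2, -0.10 for *VEGFB*, a ligand of VEGFR1, -0.10 for *PGF*, the placental growth factor, -0.07 for *ANGPT1* and -0.06 for *ANGPT2*. *VEGFB* had a one-sided p toward PRMT5hi of 0.0180 by Fisher's method (adjusted p = 0.417), so that 2 of the 7 genes were under 0.05 toward PRMT5hi and 1 toward PRMT5lo. Over all 1420 genes 132 were under 0.05 toward PRMT5hi and 122 toward PRMT5lo by the same method. Both angiopoietins were thus on the other side of 0 from their receptor gene *TEK*, by means no larger than their SE of 0.11.

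Of 23 genes of cytoplasmic signaling below these receptors, 3 were called toward PRMT5lo and 0 toward PRMT5hi, beside 0.704% and 0.845% of all genes. *HRAS* and *BRAF* were among the 3, and the median of means was 0.04, beside -0.0033 over all genes. At a p limit of 0.001, 1 of the 3 was called, and neither *HRAS* nor *BRAF* was. The lowest mean of that list was -0.29 for *STAT3*, at 39.9 CPM in PRMT5lo and 55.5 CPM in PRMT5hi (one-sided p toward PRMT5hi 0.0306 by Fisher's method, adjusted p = 0.473). *HRAS* and *BRAF* were singled out by the study on the same libraries, which makes that count no independent evidence. Of 39 other receptor tyrosine kinases, 0 were called toward PRMT5lo and 1 toward PRMT5hi, beside the same 0.704% and 0.845% of all genes. The 1 was the neurotrophin receptor *NTRK2*, and the highest mean was 0.18 for *ROS1*, with 7 of 7 sgRNAs above 0. The 10 receptors described here had a median of means of -0.0060, beside -0.014 for those other receptors. The median SD over sgRNAs was 0.29 for the 10 receptors, 0.27 for the other receptors and 0.26 over all genes. No difference between these lists was tested.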

How the data were processed

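The amplified sgRNAs were sequenced single-end, and the authors counted the reads per library sequence and ran CB2. FastQC and hg38 are named in the submitters' processing notes. A mapper and tool versions were not given in the sources used here. CPM values were deposited by the authors as means over the 4 libraries of a population. The fractions were deposited by the authors as CB2 estimates of the share of reads, each with a variance over the libraries. The deposited log2 ratios, p-values and gene table, which hold the authors' own comparisons, were not used for results. The columns do not name the populations, and which is PRMT5hi was taken from the legend and data sheet of the study's screen plot.

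From these values the score test was recomputed in Python 3.11.15 with SciPy 1.17.1 as the difference between the fractions divided by its standard error, with Satterthwaite degrees of freedom, one-sided in each direction. The p-values of a gene's sgRNAs were combined by Fisher's method, with Benjamini-Hochberg adjustment over 9929 targeting sgRNAs or 1420 genes. Genes were called at p under 0.01 and a mean log2 ratio above 0.25 or below -0.25, the limits in the study's legend. The study's methods give a p limit of 0.001 for PRMT5lo, which was an alternative, and the opposite sign of the ratio for both populations. The SE of a ratio was derived from the variances by the delta method, and that of a gene's mean assumes independent errors between sgRNAs. The depth was recovered from 1837 sgRNAs in PRMT5lo and 1258 in PRMT5hi at the smallest variance, of which 100% gave whole reads within 0.05. The test was checked on simulated data in which no variance was held at the smallest the method allows. In the screen 17.6% of sgRNAs in PRMT5lo and 12.1% in PRMT5hi were at that variance, so the check does not cover them. limma 3.58.1 in R 4.3.3 was an alternative. Of each receptor the sgRNAs with the highest and lowest ratio are named, and all with a p under 0.05. Of each further list the called genes and those with the highest and lowest mean are named. Results for some genes are not reported here. The members and lists were chosen with earlier results of these data known. sgRNA sequences were not used here, so cut positions within the genes and cutting at other sites were not examined.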

Additional observations from a re-analysis of the deposited data

How the results depend on the processing

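The count of called receptors was 0 in both directions under Stouffer's method, p limits of 0.001 and 0.05, the median over sgRNAs, a minimum of 20 CPM, limma on sgRNA ratios, pseudocounts of 5 and 10, centring on the control median and leaving out each sgRNA in turn. Over all genes, limma called 7 toward PRMT5lo and 14 toward PRMT5hi, against 10 and 12 by Fisher's method. The limma p was two-sided and held to the same limit of 0.01 as the one-sided p of Fisher's method, so its limit was stricter. Its error came from the spread of a gene's sgRNAs, which do not replicate the sort. With Fisher's method a p limit of 0.05 called 21 and 25. One of 0.001 called 2 and 5, with 1 of the 3 calls in the cytoplasmic signaling list among the 2. Pseudocount 10 called 4 and 9, and the median over sgRNAs called 13 and 7. Centring on the control median called 8 and 14. Among the 70 sgRNAs the counts under p 0.05 were 2 toward PRMT5lo and 3 toward PRMT5hi with the variance from the trend, which over all targeting sgRNAs gave 279 and 253, against 562 and 596. That variant kept degrees of freedom set by the 4 libraries. Toward PRMT5hi only sgRNA 6 against *FLT3* passed both ways. *FLT1* sgRNA 3 and *FLT4* sgRNA 1 passed only with the trend, and *FLT4* sgRNA 6 and *PDGFRB* sgRNA 5 only without it. With normal tails the members' counts were 5 and 7 (889 and 945 in all), and at a p limit of 0.01 they were 0 and 2 (167 and 163 in all). Beyond the 1st and 99th percentiles of the control sgRNAs lay 3 members (4.29%, against 329 or 3.31% of all targeting sgRNAs). The means of *KDR*, *PDGFRA*, *PDGFRB* and *TEK* kept their sign under all alternatives run, though that of *PDGFRB* fell to 0.00084 without its sgRNA 6. Those of the other 6 genes changed sign under at least 1, most often for *FLT1*, with values from -0.15 to 0.15. No paired analysis was possible because the columns hold 1 value per population over the 4 replicates, and for the same reason no replicate could be left out. The SE of a member's log2 ratio ran from 0.039 to 0.66 with a median of 0.25. Each SE rests on variances over 4 libraries, and the lowest was at the smallest variance the method allows in both populations. How far this range reflects what could be detected was not tested.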
